A study of Mus musculus with 6 samples.

Results

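The unfolded protein response and heat shock genes described here are 36 protein-folding and stress genes, chosen by name, out of 22548 gene symbols measured. They comprise 15 chaperones and folding enzymes of the endoplasmic reticulum (ER), 3 genes of ER-associated degradation, 7 sensors and transcription factors of the unfolded protein response, 8 cytosolic chaperones, 2 mitochondrial chaperonins and the heat shock factor Hsf1. They were measured in eosinophils, granulocytes of type 2 immunity, grown from bone marrow of BALB/c mice of wild-type genotype aged 4 to 8 weeks. The low-density marrow cells were grown with 100 ng/ml of FLT3 ligand and of stem cell factor until day 4, then with 10 ng/ml of IL-5 to day 14, so every group shares this culture. On day 14 the cells were given IL-33 at 10 ng/ml, IL-4 at 10 ng/ml or no cytokine, each for 1 h or 4 h, and 1 RNA library was sequenced for each of these 6 groups. With 1 library per group, replicates give no check of any difference below, and there are no p-values. The labels do not say whether the marrow of several animals was pooled.

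The unfolded protein response is a set of signalling pathways that sense misfolded protein in the ER. Its sensors in the ER membrane are IRE1 alpha (gene Ern1), PERK (gene Eif2ak3) and ATF6; they act through the transcription factors XBP1, ATF4 and cleaved ATF6, which raise chaperones, degradation factors and amino acid supply, while CHOP (gene Ddit3) is tied to cell death under lasting stress. Eosinophils, which store large amounts of basic granule protein, depend on XBP1 for their development in mice. The heat shock response is the cytosolic counterpart, in which HSF1 binds promoters of cytosolic and mitochondrial chaperone genes when unfolded protein builds up there.

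The DNA letters that set these pathways apart lie close to the transcription start of some of the genes. Windows from 250 bases before to 50 bases after the start, from RefSeq on build GRCm38.p6, were at hand for 29 of the 36 genes and for 32851 start sites in all, and were searched on both strands. The ER stress response element, CCAAT and CCACG with 9 bases of any kind between them, was found in 7 of the 13 ER chaperone genes with a window (Hspa5, Calr, Hsp90b1, Canx, Pdia6, Dnajc3 and Creld2), in 0 of 7 cytosolic or mitochondrial chaperone genes with a window and in 0.119% of all windows. The shorter element ERSE-II, ATTGG and CCACG with 1 base between them, was found in Herpud1 and Dnajb11 and in 0.0365% of all windows. The heat shock element is GAA, TTC and GAA with 2 bases after each of the earlier parts. It was found in 3 of the 7 cytosolic or mitochondrial chaperone genes with a window (Hspd1, Hspe1 and Hsph1) and in 0.603% of all windows. In Hsph1 the matches lay after the start, from bases 16 and 37, and Hspa1a and Hspa1b had a window without a match. The letters TGATGCAA, a form of the C/EBP-ATF response element, were found in Herpud1 and in 0.895% of all windows. A match is a run of letters and not a shown binding site, and no match says only that these letters are not in this window. The 250 bases before the start are shown 5′ to 3′ for 5 genes that carry the different elements. Capitals mark the ER stress response element in Hspa5, Hsp90b1 and Pdia6, ERSE-II in Herpud1 and the heat shock element in Hspd1. Hsp90b1 has 2 matches in opposite orientations, and Hspd1 has 2 overlapping matches.
Hspa5 chr2:34771840-34772089, plus strand: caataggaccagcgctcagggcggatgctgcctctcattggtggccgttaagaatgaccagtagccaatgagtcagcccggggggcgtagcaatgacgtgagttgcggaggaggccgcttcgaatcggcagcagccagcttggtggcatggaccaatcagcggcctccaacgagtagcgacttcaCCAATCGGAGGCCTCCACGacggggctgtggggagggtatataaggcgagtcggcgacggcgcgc
Hsp90b1 chr10:86705445-86705694, minus strand: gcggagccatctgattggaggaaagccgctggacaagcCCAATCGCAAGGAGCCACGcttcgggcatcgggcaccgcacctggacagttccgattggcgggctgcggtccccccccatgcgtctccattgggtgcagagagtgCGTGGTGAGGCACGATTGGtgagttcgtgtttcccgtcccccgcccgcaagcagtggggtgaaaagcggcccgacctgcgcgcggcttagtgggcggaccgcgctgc
Pdia6 chr12:17266339-17266588, plus strand: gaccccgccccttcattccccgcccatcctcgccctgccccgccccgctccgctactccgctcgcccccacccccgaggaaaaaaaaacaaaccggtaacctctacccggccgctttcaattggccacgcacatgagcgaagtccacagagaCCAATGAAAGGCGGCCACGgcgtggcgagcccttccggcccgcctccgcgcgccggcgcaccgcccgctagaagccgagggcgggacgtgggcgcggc
Herpud1 chr8:94386179-94386428, plus strand: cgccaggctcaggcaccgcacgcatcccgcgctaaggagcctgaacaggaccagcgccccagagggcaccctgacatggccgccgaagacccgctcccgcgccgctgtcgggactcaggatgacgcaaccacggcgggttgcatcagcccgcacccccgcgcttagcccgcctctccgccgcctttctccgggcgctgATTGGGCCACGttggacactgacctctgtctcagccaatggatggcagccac
Hspd1 chr1:55087933-55088182, minus strand: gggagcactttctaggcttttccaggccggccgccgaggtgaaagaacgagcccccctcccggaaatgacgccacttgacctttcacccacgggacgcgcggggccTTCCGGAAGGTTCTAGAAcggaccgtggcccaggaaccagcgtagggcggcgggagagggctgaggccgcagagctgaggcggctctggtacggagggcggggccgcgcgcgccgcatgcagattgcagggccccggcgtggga

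In Hspa5 the match began 65 bases before the start, in Pdia6 98 bases, and in Hsp90b1 212 and 107 bases. ERSE-II in Herpud1 began 52 bases before the start, and its C/EBP-ATF letters, in lower case above, began 112 bases before it. The Hspd1 and Hspe1 genes are neighbours that are read in opposite directions, and the heat shock elements found in the Hspe1 window are the same letters on the other strand. Coordinates of these windows are on GRCm38.p6, whereas the deposited values were made on mm9.

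Values are FPKM, fragments scaled by transcript length and sequencing depth, which can be compared between genes because they are divided by length. The deposited tables each hold 1 cytokine library beside the untreated library of the same time, and they were scaled separately: untreated values in the IL-33 tables were 0.945 times (1 h) and 0.947 times (4 h) those in the IL-4 tables. Each cytokine library was therefore set against the untreated values of its own table, and the untreated library has a value from each table below. A change is log2((tested FPKM + 1) / (reference FPKM + 1)), which understates the change of low genes, and a gene is called higher or lower where this passes 1.5-fold. The genes compared had at least 1 FPKM in either library, which left 34 of the 36 members. Between 10381 and 10682 genes had at least 1 FPKM in a library. The eosinophil marker genes summed to between 60105 and 74814 FPKM in the deposited columns, and the members together made up 0.439% to 0.549% of all FPKM. Where FPKM could be turned back into whole reads, 21 of the 31 members with 1 transcript had between 67 and 21892 reads in a library. Their 95% intervals (exact Clopper-Pearson) cover counting error only, and reads without molecular identifiers are not independent molecules.

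Several ER chaperones were among the abundant transcripts of these cells at both times, and others were in the middle ranks. Calr, a calcium-binding lectin chaperone, was the highest member, at 529 FPKM in untreated cells at 4 h and 635 FPKM at 1 h in the IL-4 tables. Among all 22548 symbols it ranked 205 at 4 h and 176 at 1 h. Hsp90b1 (GRP94), P4hb and Pdia3 (protein disulfide isomerases) followed, at 282, 232 and 208 FPKM in untreated cells at 4 h and 350, 339 and 238 FPKM at 1 h. Hyou1, a chaperone of the HSP110 kind, was the lowest ER chaperone at 4 h, with 16.0 FPKM in untreated cells and rank 4674. The range from Hyou1 to Calr thus spanned more than an order of magnitude within this group.

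Most ER chaperone genes were lower at 4 h than at 1 h, with or without a cytokine. In untreated cells 14 of the 15 were lower at 4 h by any amount, where 35.4% of 10813 genes compared were. Their median change was -0.38, against 0.10 over all genes compared. By at least 1.5-fold, 4 members were lower at 4 h, all of them ER chaperones (Sdf2l1, Hspa5, Hyou1 and Manf), where 3.63% of all genes were. No member was higher by that much, where 5.9% of all genes were. In bulk RNA, fewer cells of a type and less RNA per cell cannot be told apart.

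Sdf2l1, a partner of the ER chaperone BiP, had the largest fall of any member between the times in untreated cells. Its level was 26.0 FPKM with IL-33 and 33.2 FPKM in untreated cells at 4 h in the IL-33 table, against 61.9 and 60.4 FPKM at 1 h. In the IL-4 tables it was 37.7 FPKM with IL-4 and 35.0 FPKM in untreated cells at 4 h, against 61.3 and 63.9 FPKM at 1 h. All 4 h values were below all 1 h values, and in untreated cells the change was -0.85, a fold of 0.547 (counting interval 0.492 to 0.608).

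Hspa5 encodes BiP, the main HSP70 chaperone of the ER and the usual gauge of ER stress; the gene lies on chromosome 2 at 34627609-34632049 (mm9). It had 137 FPKM with IL-33 and 127 FPKM in untreated cells at 4 h in the IL-33 table, against 327 and 213 FPKM at 1 h. In the IL-4 tables it had 145 FPKM with IL-4 and 134 FPKM in untreated cells at 4 h, against 230 and 225 FPKM at 1 h. The 4 h values lay together below every 1 h value, and the IL-33 library of 1 h stood above the rest. In untreated cells the change at 4 h against 1 h was -0.74.

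Hyou1 had 16.0 FPKM in untreated cells at 4 h against 26.7 FPKM at 1 h, a fold of 0.601 (0.558 to 0.646). Manf, a secreted ER stress-responsive factor, had 41.2 FPKM in untreated cells at 4 h against 64.0 FPKM at 1 h, a fold of 0.643 (0.602 to 0.688). In both genes the IL-33 and IL-4 libraries showed the same order of times. Hyou1 had 13.6 FPKM with IL-33 and 17.2 FPKM with IL-4 at 4 h, against 26.5 and 25.7 FPKM at 1 h, and Manf had 38.5 and 44.1 FPKM at 4 h against 62.7 and 62.5 FPKM at 1 h. Further falls in untreated cells that did not reach 1.5-fold were those of P4hb (-0.55), Creld2 (-0.48), Pdia6 (-0.40), Dnajb11 and Dnajb9, both HSP40 co-chaperones of BiP (-0.38 and -0.34), and the disulfide isomerase Pdia4 (-0.32). Dnajc3, a co-chaperone also known as an inhibitor of PERK, had 21.7 FPKM at 4 h against 26.6 FPKM at 1 h in untreated cells.

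The order of times was then looked at over all 6 libraries, a description chosen after the values were seen, with the IL-33 columns brought to the scale of the IL-4 tables. In 13 of the 15 ER chaperones all 3 libraries of 4 h were below all 3 libraries of 1 h, where 11.1% of 11183 genes were. With all libraries put on 1 median scale, the count was again 13, where 16.8% of genes were. The exceptions were Pdia4, in which the IL-4 library of 4 h had 57.7 FPKM, and Canx, the membrane-bound lectin chaperone calnexin, in which all 3 libraries of 4 h were above those of 1 h. Canx had 91.3 FPKM with IL-4 and 86.4 FPKM in untreated cells at 4 h, against 79.4 and 79.9 FPKM at 1 h. Outside this group, Hsp90aa1 was the remaining member below at 4 h, and Herpud1, Ern1, Hsph1, Hspd1 and Hsf1 were above at 4 h in all 3 libraries, where 30.6% of all genes were. The 3 libraries of a time had different treatments and are not replicates. A cytokine library set against the untreated library of the other time gave other counts past 1.5-fold. Against untreated cells of 4 h, the IL-33 library of 1 h had 10 members called higher and 1 called lower. The IL-4 library of 1 h had 4 called higher and 1 called lower. Against untreated cells of 1 h, the IL-33 library of 4 h had 3 members called higher and 9 called lower. The IL-4 library of 4 h had 0 called higher and 3 called lower. No share over all genes was computed for these counts, so they cannot set the members apart from genes in general. Set against the other time, Hspa5 with IL-33 changed by 1.36 at 1 h and by -0.63 at 4 h. The sign at 4 h was opposite to that within the time.

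**Figure D1:**
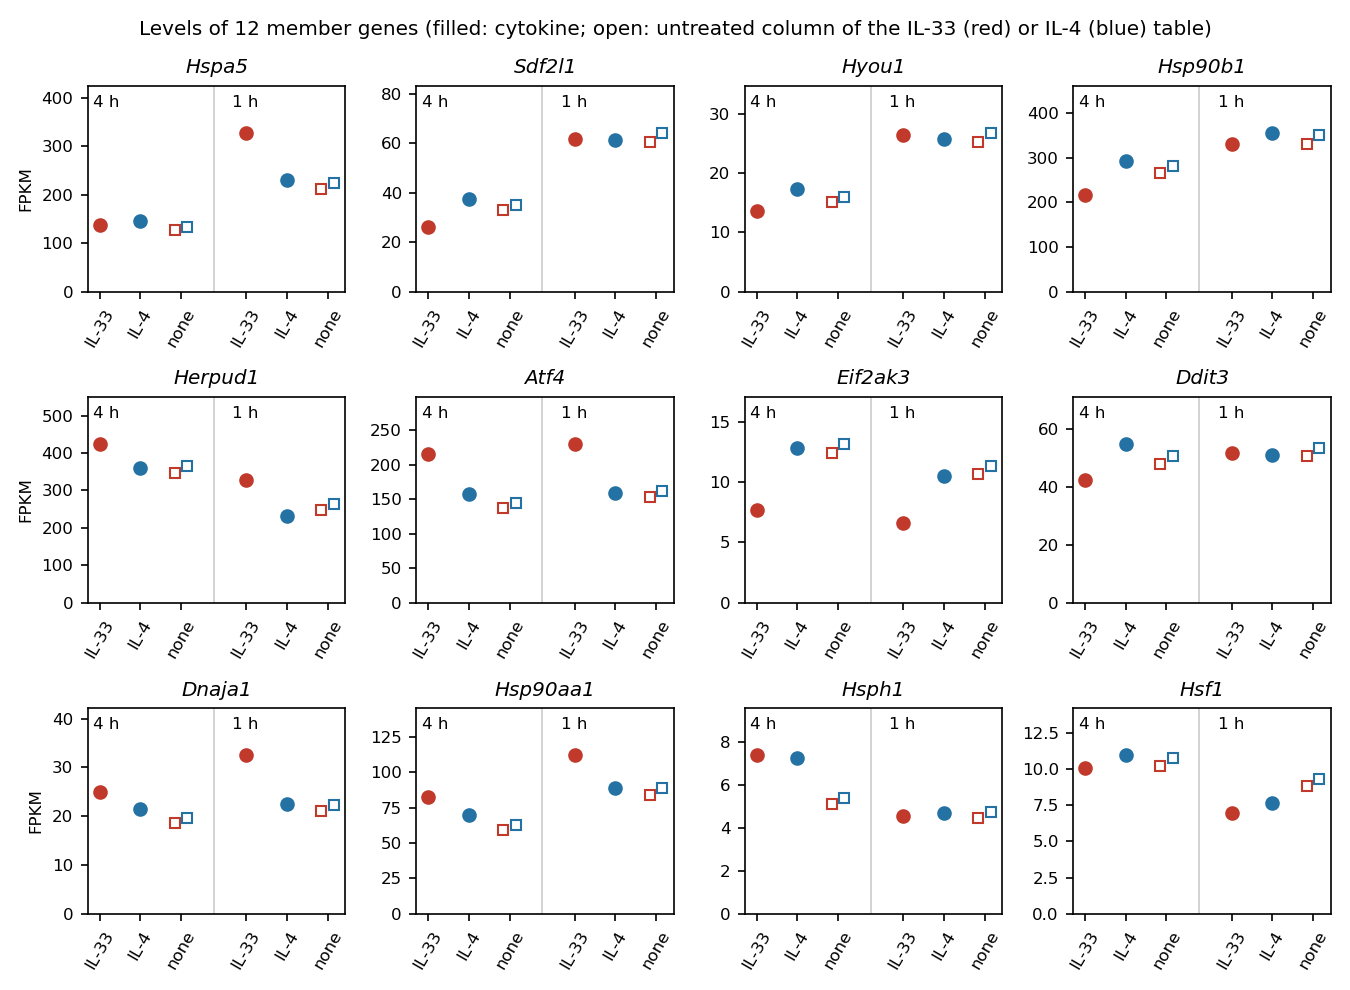
FPKM (y axis, linear from 0) of 12 genes in each library, with the 4 h libraries left of the 1 h libraries in each panel and, within a time, IL-33 (red), IL-4 (blue) and untreated cells (open squares, 1 for each deposited table that holds that library). Hspa5, Sdf2l1 and Hyou1 sit lower in all 4 h libraries, whereas Atf4 and Eif2ak3 separate the IL-33 libraries from the others at both times.

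The time of collection cannot be told apart from the library in this design, and a marker list of another tissue moved with it. The 12 heart muscle genes, a list added with earlier results of these data known, summed to between 2.89 and 3.14 FPKM at 4 h and between 117 and 160 FPKM at 1 h, and 1 of them was at 0 throughout. In untreated cells 9 of 9 compared were lower at 4 h, with a median change of -4.01. Small heat shock genes that muscle also expresses moved the same way at low levels: Cryab had 0.720 FPKM in untreated cells at 4 h against 3.62 FPKM at 1 h, and Hspb1 had 0.184 FPKM at 4 h against 1.83 FPKM at 1 h. Their part in the fall of the ER chaperones was not tested. The 15 ER chaperones summed to 1838 FPKM in untreated cells at 4 h and 2380 FPKM at 1 h in the IL-4 tables. Markers of plasma cells, which are rich in ER chaperones, summed to between 3.71 and 5.02 FPKM over all libraries.

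With IL-33 for 1 h, Hspa5 was the ER chaperone that stood out. It had 327 FPKM with IL-33 against 213 FPKM in untreated cells, a change of 0.62. Both of its transcripts were higher, at 292 and 34.3 FPKM with IL-33 against 192 and 20.7 FPKM in untreated cells. Over all members, 2 were higher by at least 1.5-fold (Hspa5 and Dnaja1), where 4.75% of 10616 genes were, and 1 was lower (Eif2ak3), where 2.77% were. Dnajb9, the next ER chaperone by size of change, had 36.1 FPKM with IL-33 against 27.5 FPKM in untreated cells, a fold of 1.31 (1.21 to 1.42). The other 13 ER chaperones lay within 0.16 of no change, with Creld2 the highest of them. All 15 were higher by some amount, where 47.6% of genes were, and their median was 0.05, against -0.01 over all genes.

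With IL-33 for 4 h the ER chaperones were lower more often than higher. Of the 15, 12 were lower by any amount, where 53.5% of 10803 genes were, with a median of -0.15 against -0.03 over all genes, and none passed 1.5-fold. Hsp90b1 had 217 FPKM with IL-33 against 267 FPKM in untreated cells, a fold of 0.814 (0.795 to 0.833). Pdia4 had 31.2 FPKM with IL-33 against 39.8 FPKM in untreated cells, a fold of 0.785 (0.734 to 0.838), and P4hb had 175 FPKM with IL-33 against 220 FPKM in untreated cells. Those higher with IL-33 included Dnajb11, at 72.1 FPKM with IL-33 against 63.1 FPKM in untreated cells, and Hspa5, at 137 FPKM with IL-33 against 127 FPKM in untreated cells. Dnajb9 turned over between the times: it was 18.0 FPKM with IL-33 against 21.5 FPKM in untreated cells at 4 h, and its change at 4 h minus that at 1 h was -0.63. It was the 1 member past 1.5-fold in that difference of changes, where 7.76% of 11015 genes were lower. The 11 neutrophil marker genes, which summed to 6345 FPKM with IL-33 against 8176 FPKM in untreated cells at 4 h, had a median change of -0.35. Other marker lists moved as well: 10 of 12 eosinophil markers (median -0.14), 5 of 6 mast cell and basophil markers compared (-0.37) and 4 of 4 erythroid and megakaryocyte markers compared (-0.42) were lower, while monocyte and macrophage markers had a median of 0.29. The lymphoid and plasma cell lists, with 5 and 2 genes compared, had medians of -0.05 and -0.49. The part of these shifts in the ER chaperone values was not tested.

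IL-4 left the ER chaperones close to untreated levels at 1 h. At 1 h 6 of the 15 were higher and 9 lower by any amount, where 40.2% and 59.8% of 10628 genes were. No member passed 1.5-fold with IL-4 at 1 h in either direction, where 1.43% of genes did, nor at 4 h, where 2.13% of 10833 genes did. At 4 h all 15 ER chaperones were higher with IL-4 by some amount, where 56.6% of genes were, and their median was 0.10 against 0.02 over all genes. Pdia4 was the one that moved most, at 57.7 FPKM with IL-4 against 42.0 FPKM in untreated cells, a fold of 1.37 (1.29 to 1.46). Both cytokines were compared with the same untreated library at each time. Set against each other by their changes, IL-33 exceeded IL-4 by at least 1.5-fold at 1 h in Atf4, Hspa5, Herpud1 and Dnaja1, where 4.73% of 10748 genes did, and all 4 lay between 0.59 and 0.60, close to the threshold, and 1 passed with a pseudocount of 5 FPKM or after centring on all genes. No member was lower at 1 h, where 2.1% of genes were. At 4 h Pdia4 (-0.79) and Eif2ak3 (-0.59) had lower changes with IL-33 than under IL-4, where 6.94% of 10976 genes were, and no member was higher, where 6.98% were.

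**Figure D2:**
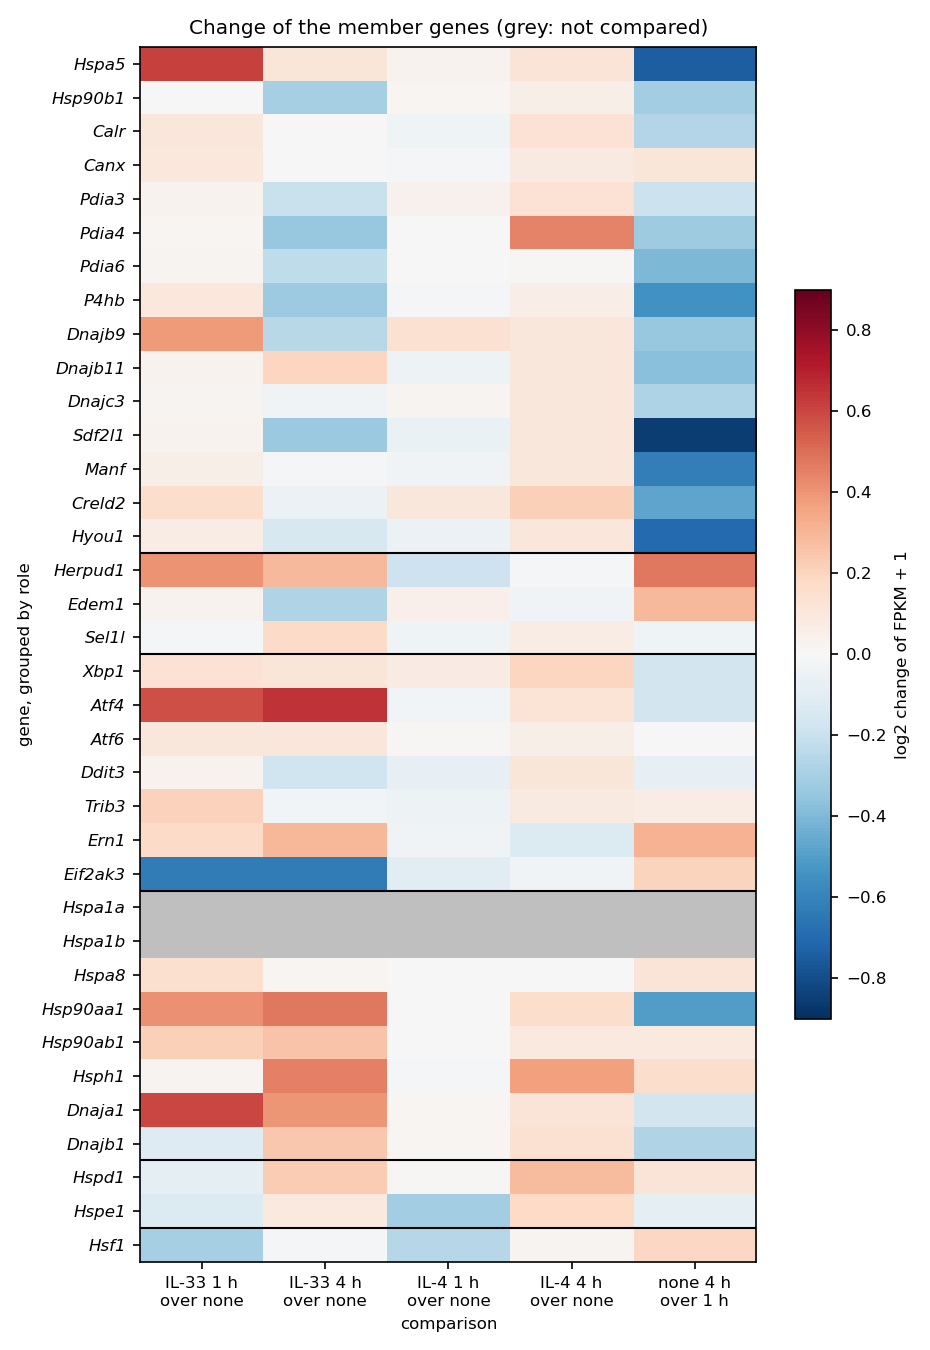
Change in log2(FPKM + 1) of each gene (rows, grouped by role) in 5 comparisons (columns), from blue (lower in the first-named library) to red (higher), with the 2 genes under 1 FPKM in grey. The ER chaperones at the top, all but Canx (0.11), are blue in the last column, 4 h over 1 h in untreated cells, and the IL-4 columns are pale.

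The genes of ER-associated degradation went separate ways. Herpud1, an ER membrane protein of the degradation machinery, had 423 FPKM with IL-33 and 346 FPKM in untreated cells at 4 h in the IL-33 table, against 328 and 248 FPKM at 1 h. In the IL-4 tables it had 360 FPKM with IL-4 and 365 FPKM in untreated cells at 4 h, against 231 and 263 FPKM at 1 h. It was thus higher at 4 h than at 1 h, opposite to the chaperones, by 0.47 in untreated cells. At each time it was higher with IL-33 than without, with folds of 1.32 (1.29 to 1.36) at 1 h and 1.22 (1.19 to 1.25) at 4 h. Edem1, a lectin that steers misfolded glycoproteins to degradation, had 48.8 FPKM with IL-33 against 59.2 FPKM in untreated cells at 4 h and 49.2 FPKM with IL-33 against 48.1 FPKM in untreated cells at 1 h. Sel1l, the adaptor of the HRD1 ubiquitin ligase, lay between 24.5 and 27.7 FPKM in every library. None of the 3 passed 1.5-fold against untreated cells or between times.

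Among the sensors, Eif2ak3 and Atf4 moved in opposite directions with IL-33 at both times. Eif2ak3, the kinase PERK that phosphorylates eIF2 alpha, had 6.56 FPKM with IL-33 against 10.7 FPKM in untreated cells at 1 h and 7.69 FPKM with IL-33 against 12.4 FPKM in untreated cells at 4 h. The changes were -0.63 at each time, with folds of 0.614 (0.558 to 0.676) at 1 h and 0.619 (0.565 to 0.678) at 4 h. With IL-4 it had 10.5 FPKM against 11.3 FPKM in untreated cells at 1 h and 12.8 FPKM with IL-4 against 13.1 FPKM in untreated cells at 4 h. With a pseudocount of 5 FPKM the changes were -0.44 at 1 h and -0.46 at 4 h, short of 1.5-fold. The IL-33 libraries were the 2 lowest of the 6, and the others lay between 10.5 and 13.1 FPKM.

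Atf4, the transcription factor whose translation rises when eIF2 alpha is phosphorylated, had 229 FPKM with IL-33 against 153 FPKM in untreated cells at 1 h and 215 FPKM with IL-33 against 137 FPKM in untreated cells at 4 h. Under IL-4 the level was 160 FPKM against 162 FPKM in untreated cells at 1 h and 157 FPKM with IL-4 against 144 FPKM in untreated cells at 4 h. The IL-33 libraries were the highest at both times. The change was 0.65 at 4 h, the 1 member called higher there, where 8.04% of 10803 genes were; Eif2ak3 was the 1 called lower, where 7.31% were. At 1 h the change of Atf4 was 0.58, just under the threshold, while that of Dnaja1 (0.60) was just over it. Against the untreated library of 1 h, the change of Atf4 at 4 h was 0.49. The fold was 1.57 (1.51 to 1.64) at 4 h, and at 1 h its counting interval was 1.45 to 1.55. RNA levels do not show the translation or the phosphorylation by which this branch is controlled.

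The remaining sensors and factors lay near their untreated levels. Ddit3, the gene of CHOP, had 51.7 FPKM with IL-33 against 50.5 FPKM in untreated cells at 1 h and 42.2 FPKM with IL-33 against 48.0 FPKM in untreated cells at 4 h. With IL-4 it had 50.9 FPKM against 53.5 FPKM in untreated cells at 1 h and 54.7 FPKM with IL-4 against 50.7 FPKM in untreated cells at 4 h. Ddit3 thus had no library clearly apart, and the IL-33 library of 4 h was the lowest. Xbp1 had 50.6 FPKM with IL-33 against 46.1 FPKM in untreated cells at 1 h and 44.3 FPKM with IL-33 against 41.0 FPKM in untreated cells at 4 h. Under IL-4 Xbp1 had 51.3 FPKM against 48.8 FPKM in untreated cells at 1 h and 49.7 FPKM with IL-4 against 43.3 FPKM in untreated cells at 4 h. Xbp1 was above the untreated library in all 4 comparisons, by 0.07 to 0.19. The IL-33 and IL-4 comparisons of a time share the same untreated library, so they are not separate observations. The counting interval held 1 with IL-4 at 1 h (0.982 to 1.13) and lay above 1 in the others. The spliced form of Xbp1, the active one, cannot be read from these gene totals.

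Ern1, the sensor that splices Xbp1, had 8.15 FPKM with IL-33 against 6.43 FPKM in untreated cells at 4 h, a fold of 1.27 (1.13 to 1.43). At 1 h it had 5.76 FPKM with IL-33 against 4.99 FPKM in untreated cells. Atf6 lay between 6.82 and 7.56 FPKM in every library. Trib3, a pseudokinase induced by ATF4 and CHOP, lay between 2.06 and 2.54 FPKM, and its counting interval with IL-33 at 1 h was 0.924 to 1.64.

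The cytosolic chaperones were mostly higher with IL-33, and at 4 h, by less, with IL-4 as well. Of the 6 compared, 6 were higher by any amount with IL-33 at 4 h, where 46.5% of genes were, with a median of 0.33 against -0.03 over all genes. At 1 h 5 of 6 were, where 47.6% of genes were, with a median of 0.18 against -0.01 over all genes. None passed 1.5-fold with IL-33 at 4 h, and Dnaja1 did at 1 h. With IL-4, 5 of 6 were higher by any amount at 4 h, where 56.6% of genes were, with a median of 0.13 against 0.02 over all genes. At 1 h 2 of 6 were higher with IL-4, where 40.2% of genes were. Both cytokines were set against the same untreated library at each time. Dnaja1, an HSP40 co-chaperone of HSP70, had 32.4 FPKM with IL-33 against 21.0 FPKM in untreated cells at 1 h and 24.9 FPKM with IL-33 against 18.7 FPKM in untreated cells at 4 h. Under IL-4 its level was 22.5 FPKM against 22.2 FPKM in untreated cells at 1 h and 21.5 FPKM with IL-4 against 19.7 FPKM in untreated cells at 4 h. The IL-33 library of 1 h was the highest of the 6, with a change of 0.60 (0.53 with a pseudocount of 5 FPKM), and the IL-33 library of 4 h came next.

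Hsp90aa1, the inducible form of HSP90, had 112 FPKM with IL-33 against 84.1 FPKM in untreated cells at 1 h and 82.7 FPKM with IL-33 against 59.1 FPKM in untreated cells at 4 h. The fold was 1.33 (1.28 to 1.38) at 1 h, and at 4 h its counting interval was 1.34 to 1.46. The IL-4 library had 89.0 FPKM, as did untreated cells, at 1 h and 69.9 FPKM with IL-4 against 62.4 FPKM in untreated cells at 4 h. The IL-33 library was highest at each time, and the 4 h libraries were lower than the 1 h libraries, by 0.50 in untreated cells. Hsp90ab1, the constitutive form, had 267 FPKM with IL-33 against 223 FPKM in untreated cells at 4 h and 243 FPKM with IL-33 against 210 FPKM in untreated cells at 1 h.

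Hsph1, an HSP110 nucleotide exchange factor for HSP70, was higher with both cytokines at 4 h. It had 7.35 FPKM with IL-33 against 5.09 FPKM in untreated cells, a fold of 1.45 (1.26 to 1.67), and 7.22 FPKM with IL-4 against 5.37 FPKM in untreated cells, a fold of 1.35 (1.16 to 1.57). At 1 h it lay between 4.45 and 4.71 FPKM in all 3 libraries. Hspa8, the constitutive cytosolic HSP70, was the most abundant cytosolic member, with 379 to 435 FPKM over the deposited columns. Dnajb1, a heat-inducible HSP40, lay between 19.9 and 26.0 FPKM.

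The classical inducible HSP70 genes were the lowest of all members. Hspa1a lay between 0.23 and 0.64 FPKM and Hspa1b between 0.23 and 0.55 FPKM, below 1 FPKM in every library, and they were not compared. These 2 genes are near-identical copies, so reads may have been split between them. Their sum was 1.19 FPKM with IL-33 against 0.908 FPKM in untreated cells at 1 h and was below the 0.695 FPKM of untreated cells at 4 h.

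The mitochondrial chaperonins Hspd1 (HSP60) and Hspe1 (HSP10), whose start sites share the heat shock element shown above, were measured separately. Hspd1 had 40.5 FPKM with IL-33 against 34.4 FPKM in untreated cells at 4 h and 29.9 FPKM with IL-33 against 31.7 FPKM in untreated cells at 1 h. With IL-4 it had 44.5 FPKM against 36.3 FPKM in untreated cells at 4 h, a fold of 1.22 (1.14 to 1.32). Hspe1 lay between 19.7 and 26.5 FPKM, and its IL-4 library was at the bottom of that range at 1 h and at the top at 4 h. Hsf1, the master factor of the heat shock response, had 6.98 FPKM with IL-33 against 8.79 FPKM in untreated cells at 1 h, a fold of 0.794 (0.681 to 0.925), and 10.1 FPKM with IL-33 against 10.2 FPKM in untreated cells at 4 h. Under IL-4 its level was 7.64 FPKM against 9.30 FPKM in untreated cells at 1 h and 10.9 FPKM with IL-4 against 10.7 FPKM in untreated cells at 4 h. Both cytokine libraries of 1 h lay below the untreated one, and the 4 h libraries lay together.

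Among the members, the compartments separated with IL-33 at 4 h. The ER chaperones summed to 1605 FPKM with IL-33 against 1741 FPKM in untreated cells, while the cytosolic chaperones summed to 824 FPKM with IL-33 against 739 FPKM in untreated cells. At 1 h both sums were higher with IL-33, at 2460 FPKM with IL-33 against 2249 FPKM in untreated cells for the ER and 834 FPKM with IL-33 against 723 FPKM in untreated cells for the cytosol. Hspa5, at 327 against 213 FPKM, is part of that ER sum. The total FPKM of all genes was also higher with IL-33, at 748539 against 695067 at 1 h and 758202 against 686297 at 4 h. The sums were not corrected for this. At 4 h the cytosolic sum rose by about as much as the total, so that rise does not set the cytosolic chaperones apart. The rise of the ER sum at 1 h was also near that of the total. Centred on the median of all genes, the median changes at 4 h were -0.12 for the ER and 0.36 for the cytosolic chaperones. Between IL-33 and IL-4 at 4 h, 14 of 15 ER chaperones were lower with IL-33 (median -0.24) and 6 of 6 cytosolic chaperones were higher (median 0.14), where 57.9% and 42.1% of genes were. These counts describe single libraries, and no test of the difference between the compartments was made. The 49 further ER folding and degradation genes described below had a median of -0.03 with IL-33 at 4 h, as over all genes. The 43 further cytosolic heat shock genes had a median of 0.19. In untreated cells between the times, the cytosolic chaperones split evenly, with 3 higher and 3 lower at 4 h, where 64.6% of genes were higher.

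**Figure D3:**
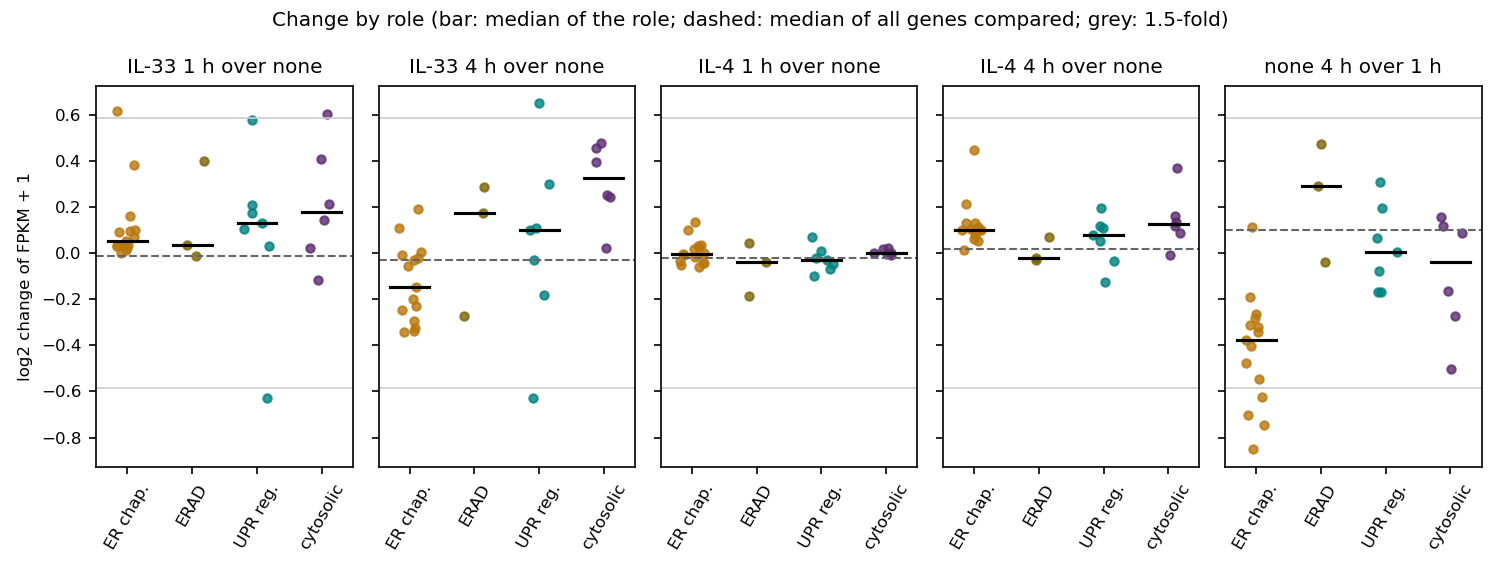
Change in log2(FPKM + 1) (y axis) of the members in 4 roles (points; the bar is the median of the role) in 5 comparisons, with the median of all genes compared dashed and 1.5-fold in grey; chap. is chaperones, ERAD the degradation genes and UPR reg. the sensors and factors. With IL-33 at 4 h the ER chaperones have a median of -0.15 and the cytosolic chaperones of 0.33, and in untreated cells the ER chaperones have a median of -0.38 at 4 h over 1 h.

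Counting error was small beside several of these changes. With IL-33 at 1 h the counting interval of the fold lay above 1 in 8 of the 21 members with whole reads, below 1 in 2 and held 1 in 11. Over the 5735 genes with whole reads and at least the mean reads of the lowest member, 22.5% lay above 1 and 26.7% below. With IL-33 at 4 h 7 members lay above, 7 below and 7 held 1, where 31% of these genes lay above and 36.5% below, so the members were close to genes in general. With IL-4 the members above and below were 1 and 3 at 1 h, where 6.36% and 11.9% of genes were, and 9 and 0 at 4 h, where 14% and 8.67% were. For untreated cells at 4 h over 1 h they were 5 and 11, where 42.1% and 18.4% were. The members had more reads than these genes, with a median of 1704 against 766.5 per library, and more reads give narrower intervals. An interval away from 1 says that 2 libraries differ beyond counting and not that the conditions differ. Depth differed as well: over genes with whole reads, the IL-33 library of 4 h held 1.97 times the reads of its untreated library, and the other cytokine libraries held between 0.962 and 1.26 times.

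**Figure D4:**
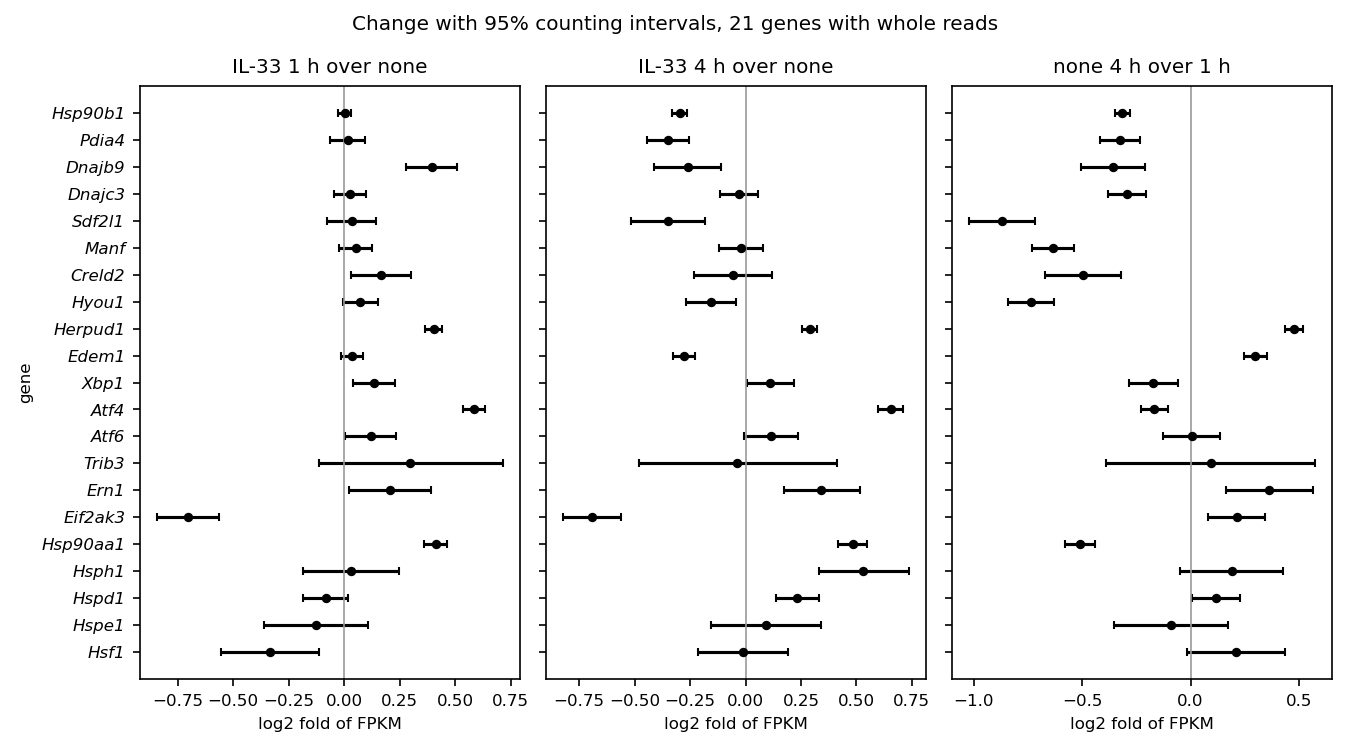
Log2 fold of FPKM, with no pseudocount (x axis), with 95% exact counting intervals, of the 21 genes with whole reads in 3 comparisons. Atf4 and Hsp90aa1 lie right of 0 and Eif2ak3 left of it in both IL-33 panels, and all 8 ER chaperones shown, Hsp90b1 to Hyou1, lie left of 0 in the untreated panel.

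Other genes of the same pathways were taken as 5 lists of 159 distinct genes, 157 of them in the files, chosen with earlier results of these data known. Over all genes compared, 4.75% were higher and 2.77% lower by 1.5-fold with IL-33 at 1 h, and 8.04% higher and 7.31% lower at 4 h. Of 49 further ER folding and degradation genes compared with IL-33, 0 passed 1.5-fold at 1 h, and 1 was higher at 4 h. That gene was Ero1l, the ER oxidase ERO1 alpha, at 289 FPKM with IL-33 against 99.1 FPKM in untreated cells. By any amount at 4 h, 20 of the 49 were higher and 29 lower, where 46.5% and 53.5% of genes were. Their median was -0.03, as over all genes. Of 27 ATF4 targets and integrated stress response genes, 6 were higher and 0 lower by 1.5-fold at 1 h, and 5 were higher and 2 lower at 4 h. The 2 lower were Shmt2 (-0.61) and Bbc3 (-0.78). By any amount, 16 of the 27 were higher and 11 lower at 1 h, where 47.6% of genes were higher, with a median of 0.03. At 4 h 15 were higher and 12 lower, where 46.5% of genes were higher, with a median of 0.17. The list as a whole thus moved little at 1 h. Ppp1r15a, which directs dephosphorylation of eIF2 alpha, had 46.5 FPKM with IL-33 against 15.3 FPKM in untreated cells at 1 h and 18.9 FPKM with IL-33 against 11.0 FPKM in untreated cells at 4 h. Phgdh, the entry enzyme of serine synthesis, had 34.7 FPKM with IL-33 against 5.03 FPKM in untreated cells at 4 h. Slc7a11, the cystine transporter, had 251 FPKM with IL-33 against 94.8 FPKM in untreated cells at 4 h and 224 FPKM with IL-33 against 123 FPKM in untreated cells at 1 h. Nupr1, a stress-induced nuclear protein, had 14.9 FPKM with IL-33 against 4.32 FPKM in untreated cells at 4 h and 10.6 FPKM with IL-33 against 3.40 FPKM in untreated cells at 1 h. These 4 genes are the largest changes of their list, picked by size.

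Of the further UPR transducers, 0 of 15 passed 1.5-fold with IL-33 at 1 h and 3 of 14 were higher at 4 h. They were Nfyb, a subunit of the factor NF-Y, at 26.6 FPKM with IL-33 against 11.2 FPKM in untreated cells, Traf2, an adaptor that binds IRE1 alpha, at 20.6 FPKM with IL-33 against 10.8 FPKM in untreated cells, and the stress kinase gene Map3k5, at 31.8 FPKM with IL-33 against 18.0 FPKM in untreated cells. Of the further cytosolic heat shock genes, 2 of 45 were higher and 1 lower at 1 h, and 2 of 43 were higher at 4 h, near or under the shares of all genes. At 1 h these included Dnajb4, an HSP40, at 28.2 FPKM with IL-33 against 12.7 FPKM in untreated cells, and Hspa4l, an HSP110, at 18.3 FPKM with IL-33 against 9.91 FPKM in untreated cells. At 4 h they were the HSP70 co-chaperone St13, at 83.5 FPKM with IL-33 against 43.8 FPKM in untreated cells, and the HSP90 co-chaperone Ptges3, at 74.2 FPKM with IL-33 against 41.0 FPKM in untreated cells. By any amount, 31 of the 43 were higher at 4 h, where 46.5% of genes were, with a median of 0.19 against -0.03 over all genes. At 1 h 26 of the 45 were, where 47.6% of genes were, with a median of 0.02 against -0.01. None of 12 mitochondrial folding and protease genes passed 1.5-fold at either time. With IL-4 no gene of any of the 5 lists passed 1.5-fold at either time, where 1.43% of all genes did at 1 h and 2.13% at 4 h.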

How the data were processed

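RNA of 6 libraries was analysed. The authors deposited FPKM for 28702 RefSeq transcripts in 4 tables of 1 cytokine library and 1 untreated library. Reads were aligned with TopHat 1.4.1 to mm9 and Cuffdiff 1.2.1 gave the values, per the submitters' processing notes. Of trimming and the RefSeq release the sources used here say nothing. The authors also deposited a list of log2 fold changes, used only to check which table holds which comparison. FPKM were summed over the transcripts of a symbol, where a design of values per gene had been assumed. Changes were computed with a pseudocount of 1 FPKM over genes with at least 1 FPKM in either library. The untreated libraries of 4 h and 1 h were compared across tables, by their columns in both IL-4 tables.

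Whole reads were recovered where the FPKM of a gene with 1 transcript in all 6 libraries were whole multiples of the worth of 1 read, within 0.02 reads. This held for 10592 of 13707 such genes, or 77.3%. These reads gave the exact counting intervals. Set against annotated transcript lengths, 17 of the 21 members agreed within 20% of the usual worth of a read, as did 70.8% of 6468 genes checked. Ern1 (1.66 times the usual worth), Dnajb9 (1.34), Hspe1 (1.24) and Xbp1 (1.21) did not, so their reads and counting intervals are less sure. Read recovery was tried on simulated reads, with the outcome not given here. The log2 changes were also run on set folds, put in by the same formula, which checks only the arithmetic. With 1 library per group, no count model was run.

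The members, the lists and the alternatives were chosen with earlier results of these data known. Values in all libraries were given for members with at least 5 FPKM in the higher library and a change past 1.5-fold with a cytokine, and for Hspa5, Ddit3, Xbp1, Atf4 and Hsf1. Sdf2l1, Hyou1, Manf, Herpud1, Hsp90aa1, Hsph1 and other members with values were singled out after their values were seen. Up to 4 genes were named per further list, those of largest change. Python 3.11.15, NumPy 2.4.6, pandas 2.3.3, SciPy 1.17.1 and Matplotlib 3.10.9 were used. Alternatives were other pseudocounts, filters, transcript choices, centring, controls and scales.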

Additional observations from a re-analysis of the deposited data

How the results depend on the processing

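No paired analysis was possible because each group has 1 library, and no library could be left out. Each summary value was recomputed under each setting that applied to it. Of these recomputed values, 200 stayed within 1.5 times (counts) or 0.1 (medians) of those given, 21 moved more, and the cause was not tested. A part of the 200 could not move, so the number does not measure stability. All ER chaperones passed every filter, so the filters and the summing of Hspa1a and Hspa1b leave their medians as they were. Counts below are of members past 1.5-fold, and medians are log2 changes. The share of all genes past 1.5-fold was not computed for these settings, so the counts cannot be set against genes in general. With a pseudocount of 5, IL-33 at 1 h had 1 higher and 0 lower, IL-33 at 4 h had 0 lower, and IL-33 against IL-4 had 1 higher at 1 h and 1 lower at 4 h. With a pseudocount of 0.1, IL-33 against IL-4 at 1 h had 1 lower. With the highest transcript only, it had 2 higher. Centred on the median of all genes, it had 1 higher at 1 h, and 1 higher and 1 lower at 4 h.

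Against the untreated library of the other time, IL-33 at 1 h had 10 higher and an ER chaperone median of 0.42, and IL-4 at 1 h had 4 higher, 1 lower and a median of 0.40. IL-33 at 4 h had 3 higher, 9 lower, an ER median of -0.61 and a cytosolic median of 0.19, and IL-4 at 4 h had 3 lower and an ER median of -0.26, a turn of sign. Hspa5 with IL-33 turned as well at 4 h, to -0.63, and was 1.36 at 1 h. Of the named genes, Eif2ak3 fell short of 1.5-fold with a pseudocount of 5 (-0.44 at 1 h and -0.46 at 4 h), and Dnaja1 likewise at 1 h (0.53). Atf4 passed it at 1 h when centred (0.59) and fell short at 4 h against the other untreated library (0.49), as did Eif2ak3 (-0.43). With all 6 libraries on 1 median scale, added after seeing the data, the 13 ER chaperones below at 4 h stood beside 16.8% of all genes. Counting error could be given for 21 members, and the spread between samples of a group is unknown for all 36.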
